A study of Mus musculus with 22 samples.

Results

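Short lamina-associated domain (LAD) blocks shared by untreated mouse embryonic fibroblasts were followed through a knockdown of lamin A/C and 3 chromatin drugs. The blocks were chosen by a rule on the 3 untreated (WT) LAD lists alone. In each list, on chromosomes 1 to 19, gaps of less than 25 kb between intervals were closed and joined intervals longer than 100 kb were kept as LADs. A consensus block is a continuous stretch of bases called in all 3 WT lists. Of 2105 consensus blocks, the 846 blocks of 50 kb to under 250 kb (40.2%) are the short blocks described here. They held 132.8 Mb, which was 10.5% of the consensus bases. The other blocks comprised 904 of 250 kb to under 1 Mb (middle blocks), 328 of 1 Mb or more (long blocks) and 27 under 50 kb.

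LADs are stretches of mostly silent, gene-poor chromatin that touch the nuclear lamina, the mesh of A-type and B-type lamins under the inner nuclear membrane. In DamID of the lamina, a lamina protein, most often lamin B1, carries the bacterial enzyme Dam, which leaves adenine methylation on DNA that comes close, and unfused Dam serves as the measure of how open each region is. Lamin A/C, histone methylation and histone deacetylation are each known to take part in holding chromatin at the lamina. Short LADs have a large share of their length close to a border, and a border is where LAD and inter-LAD chromatin meet.

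The cells were primary fibroblasts (MEF) of strain C57bl/6 isolated at stage e13.5 and cultured for at most 5 passages, and all groups shared this background. WT lists came from pup1.5, pup1.8 and pupx17, whose treatment is labelled None, so WT cells carried no control hairpin. The shLmnAC lists came from pup1.5 and pupx17, infected overnight with shLaminA/C virus, selected with puromycin, given DamID virus at 4 days and collected 48 h later. The drug lists came from pup1.8 and pupx17, treated for 18 to 24 h before the DamID virus and harvested at 60 h. BIX01294 inhibits the H3K9 methyltransferases G9a and GLP, DZNep blocks S-adenosylhomocysteine hydrolase and thereby lowers histone methylation, including that set by EZH2, and TSA (trichostatin A) inhibits histone deacetylases. The 22 samples pair into 11 LAD lists, 3 of WT and 2 of each treatment. The lists hold interval starts and ends in genome build mm9 and no read numbers, so depth is unknown, and neither the knockdown nor the cell type could be checked in them. Only the pup names say that cultures were separate, so p-values measure the spread between these lists, which may be partly technical. Where a treatment is set against the others, that spread also holds the differences between the other treatments. LADs covered 1377 to 1507 Mb of these chromosomes in the WT lists and 1302 to 1536 Mb in the treated lists.

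The short blocks had a median length of 153 kb (51.4 to 249.8 kb). At the edges of the rule, the shortest member was chr5:12052627-12103988 (51.4 kb) and the longest was chr10:104737538-104987297 (249.8 kb). The nearest consensus block below the lower limit, chr6:106398352-106446508, measured 48.2 kb. The nearest one above the upper limit, chr6:22486059-22736059, measured 250.001 kb. Members were found on every chromosome analysed, from 20 on chromosome 19 to 65 on chromosome 1. Per 10 Mb of consensus they were sparsest on chromosome 7 (4.92) and densest on chromosome 13 (9.67). Their nearest long block lay at a median distance of 1814 kb (25.8 to 32744 kb), and their nearest neighbour of at least 50 kb at a median of 82.5 kb.

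A short block was not always a short LAD. The LADs that held a block reached beyond it in at least 1 WT list, by a median of 327 kb over both sides. For 190 members (22.5%) the LAD was under 250 kb in every WT list, and these are called islands. For 453 members (53.5%) the longest WT LAD around the block was 250 kb to under 1 Mb. The remaining 203 members (24.0%) lay inside a LAD of 1 Mb or more in at least 1 WT list, of which 120 did so in 1 list, 81 in 2 lists and 2 in all 3 lists. These 203 blocks are stretches of long LADs whose neighbouring bases were missing from another WT list. Of the 82 members within 100 kb of a long block, 67 were of this kind, and 66 shared a LAD with that long block in a WT list.

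Each block was given a state in each treated list. Whole loss means that no base of the block was in a LAD, partial loss that some bases were, and fully called that all were. A fully called block had grown when its LAD reached more than 25 kb past the outermost edge of the WT LADs that held the block. DamID averages over a culture, so contact in fewer cells and weaker contact in each cell cannot be told apart.

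Whole loss was most frequent with TSA. It took 183 blocks (21.6%) in the pup1.8 list and 201 blocks (23.8%) in the pupx17 list. The shLmnAC lists differed from each other, with 67 blocks (7.92%) lost in pup1.5 and 179 (21.2%) in pupx17. BIX01294 lists lost 34 blocks (4.02%) in pup1.8 and 13 (1.54%) in pupx17, and DZNep lists lost 35 (4.14%) and 33 (3.90%). Over all 2078 consensus blocks of at least 50 kb the shares were 9.87% and 11.1% with TSA and 3.22% and 9.24% with shLmnAC. They were 1.68% and 0.626% with BIX01294 and 1.68% in each DZNep list. Thus both TSA lists stood above all other treated lists, the shLmnAC list of pupx17 came next at a small distance, and the BIX01294 and DZNep lists overlapped.

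**Figure D1:**
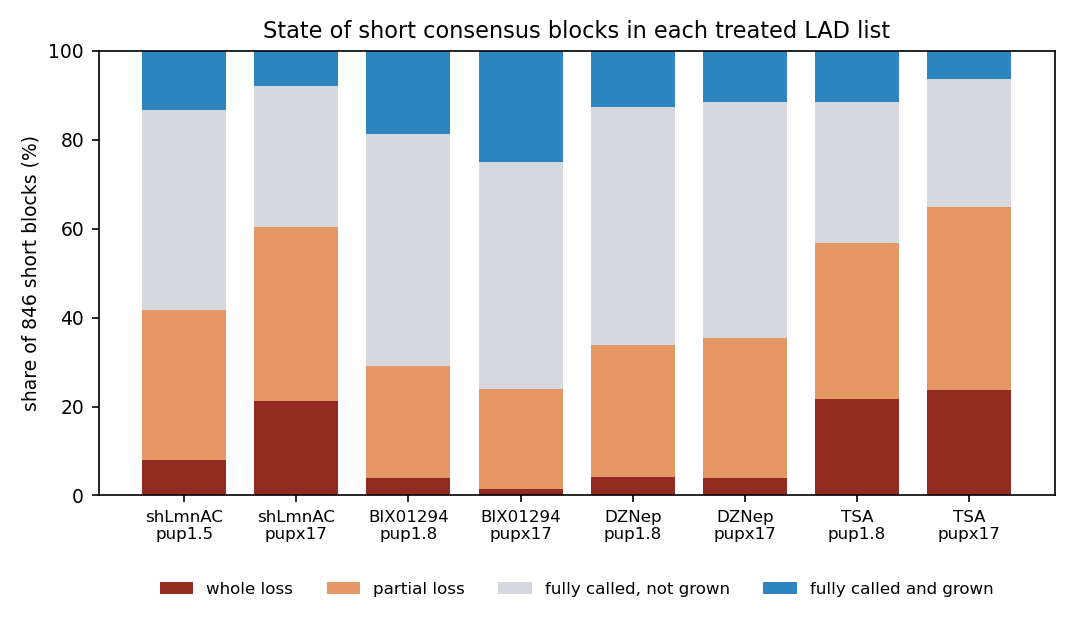
Share of the 846 short blocks (vertical axis, %) in each state, for each of the 8 treated LAD lists (horizontal axis, treatment and pup). Whole loss ranges from 1.54% (BIX01294 pupx17) to 23.8% (TSA pupx17), and fully called, grown blocks from 6.26% (TSA pupx17) to 25.1% (BIX01294 pupx17).

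Since the blocks were built from the WT lists alone, the treated lists could be compared with each other. The members and measures were chosen with earlier results of these data known, which limits the p-values here and for growth. The mean share of whole loss was 22.7% ± 1.5 for TSA, 14.5% ± 9.36 for shLmnAC, 4.02% ± 0.167 for DZNep and 2.78% ± 1.76 for BIX01294 (SD, n = 2 lists each). TSA exceeded the mean of the other 6 lists by 15.6 percentage points, the largest difference of the 28 assignments of 2 lists out of 8 (two-sided exact permutation test, p = 0.0357, adjusted p = 0.143 over 4 treatments). That is the smallest p this design allows, so no treatment could pass 0.05 after adjustment. These assignments exchange lists between pups. Kept within pups, TSA had 12 assignments and again the largest difference, which is the smallest p they allow (exact permutation, p = 0.0833, adjusted p = 0.333). The differences for shLmnAC (4.71 points, exact permutation p = 0.571), BIX01294 (-11.0 points, p = 0.179) and DZNep (-9.32 points, p = 0.286) were reached by other assignments as well. Without the pupx17 list, shLmnAC stood -1.91 points from the others. With blocks built without WT pup1.5 the shares were 29.7% for TSA, 22.5% for shLmnAC, 8.85% for DZNep and 7.0% for BIX01294. LAD coverage moved with these shares: the TSA lists (1356 and 1302 Mb) and the shLmnAC list of pupx17 (1339 Mb) were the 3 treated lists with the least LAD sequence, against 1431 to 1536 Mb in the other 5. The part of overall coverage in the loss of short blocks was not tested.

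Whole loss belonged almost entirely to short blocks. In middle blocks its mean share was 2.82% ± 0.548 with TSA, 0.719% ± 1.02 with shLmnAC, 0.111% ± 0.156 with DZNep and 0.0553% ± 0.0782 with BIX01294 (SD, n = 2). None of the 328 long blocks was lost whole in any of the 8 lists. Partial loss ran the other way with TSA, at 38.2% of short, 62.1% of middle and 71.5% of long blocks. A longer block offers more bases to lose and more to keep, so a fall of whole loss and a rise of partial loss with length are in part fixed by the definitions.

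Blocks lost in both lists of a treatment numbered 113 for TSA, against a background of 6.02% among all 2078 consensus blocks of at least 50 kb. They numbered 49 for shLmnAC (background 2.36%), 6 for DZNep (background 0.289%) and 4 for BIX01294 (background 0.192%). All but 12 of these background calls for TSA, and all of them for the other treatments, were short blocks. The 113 TSA blocks were 61.7% of those lost in pup1.8 and 56.2% of those lost in pupx17. The 49 shLmnAC blocks were 73.1% of those lost in pup1.5 but 27.4% of those lost in pupx17. With blocks built without WT pup1.5 the counts were 174 for TSA, 103 for shLmnAC, 25 for DZNep and 19 for BIX01294.

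The longest block lost in both TSA lists was chr12:37470295-37717269 (247 kb). Both TSA lists called none of its bases, while 5 of the other lists called all of it and the shLmnAC list of pupx17 called 97.7%. At chr5:43660601-43890798 (230 kb), an island, TSA again left no base in a LAD, and the other lists called 87.4% (shLmnAC pupx17) to 100% of the block. At chr8:7476704-7705837 (229 kb), the lists outside TSA called 74.0% (DZNep pup1.8) to 100%. These 3 blocks were named because both TSA lists lost them, and every other treated list called them wholly or mostly. Shorter intervals that the deposited TSA lists may still hold at these 3 blocks are not given here.

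The other blocks named for TSA were also missing, in part or in full, from the shLmnAC lists. At chr4:28767914-29007582 (240 kb), which lay 32.6 kb from a long block, the shLmnAC list of pup1.5 called 52.1% and that of pupx17 none, and the drug lists outside TSA called 51.9% to 93.1%. At chr9:122776472-123005639 (229 kb) the shLmnAC lists called 35.8% and 0%, against 85.5% to 100% with BIX01294 and DZNep.

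The longest block lost in both shLmnAC lists was the island chr8:98016018-98212378 (196 kb), called at 99.7% to 100% with BIX01294 and DZNep, at 61.9% in TSA pup1.8 and not at all in TSA pupx17. The island chr5:144680585-144856514 (176 kb) was lost in both shLmnAC lists and called at 45.1% (DZNep pupx17) to 100% in the 6 drug lists. At chr11:107063897-107231755 (168 kb) the drug lists called 92.8% to 100%, apart from TSA pupx17, which called none. The block chr4:45783518-45975825 (192 kb) was absent from both shLmnAC lists and from TSA pup1.8, with 12.0% left in TSA pupx17 and 72.3% to 100% called with BIX01294 and DZNep. The block chr3:132366285-132521568 (155 kb) was called in full in 1 treated list, DZNep pup1.8, at 48.3% in BIX01294 pup1.8 and in no other treated list.

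The blocks named for BIX01294 and DZNep were each absent from at least 1 list of another treatment as well. The 4 of BIX01294 measured 99.8 to 121.5 kb, and the longest, chr6:148910012-149031481, was called in DZNep pup1.8 and in no other treated list. At chr8:14716888-14818025 (101 kb) BIX01294 left no base in a LAD, nor did shLmnAC pup1.5, while the other 5 lists called the whole block. The 5 longest of DZNep measured 89.4 to 144.9 kb. Of these, chr4:155411663-155554169 and chr6:134229661-134335267, both islands, were absent from the shLmnAC and DZNep lists and called at 82.2% to 100% with BIX01294 and TSA. The longest, the island chr5:15643647-15788573, was absent from 6 treated lists and called at 26.3% and 92.3% in the BIX01294 lists.

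Within the short blocks, loss was lower in longer blocks in each treatment, and in WT as well. WT lists scored on blocks built without them, as described further on, lost 34.7% (pup1.5), 6.44% (pup1.8) and 19.2% (pupx17) of blocks under 150 kb and 11.0%, 0.243% and 11.9% of those of 150 kb or more. With TSA the mean share was 41.3% ± 11.2 of the 63 blocks under 100 kb, 27.9% ± 4.29 of the 346 blocks of 100 to under 150 kb, 18.3% ± 1.68 of the 252 blocks of 150 to under 200 kb and 12.7% ± 0.382 of the 185 longest (SD, n = 2). With shLmnAC it fell from 26.2% ± 7.86 to 5.41% ± 7.64 between the same end classes, and the pup1.5 list lost none of the longest class while the pupx17 list lost 10.8%. DZNep went from 11.9% ± 1.12 to 0.270% ± 0.382 and BIX01294 from 7.94% ± 4.49 to 0.270% ± 0.382. In the longest class both TSA lists (12.4% and 13.0%) were above all others, and shLmnAC pupx17 was again the nearest.

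**Figure D2:**
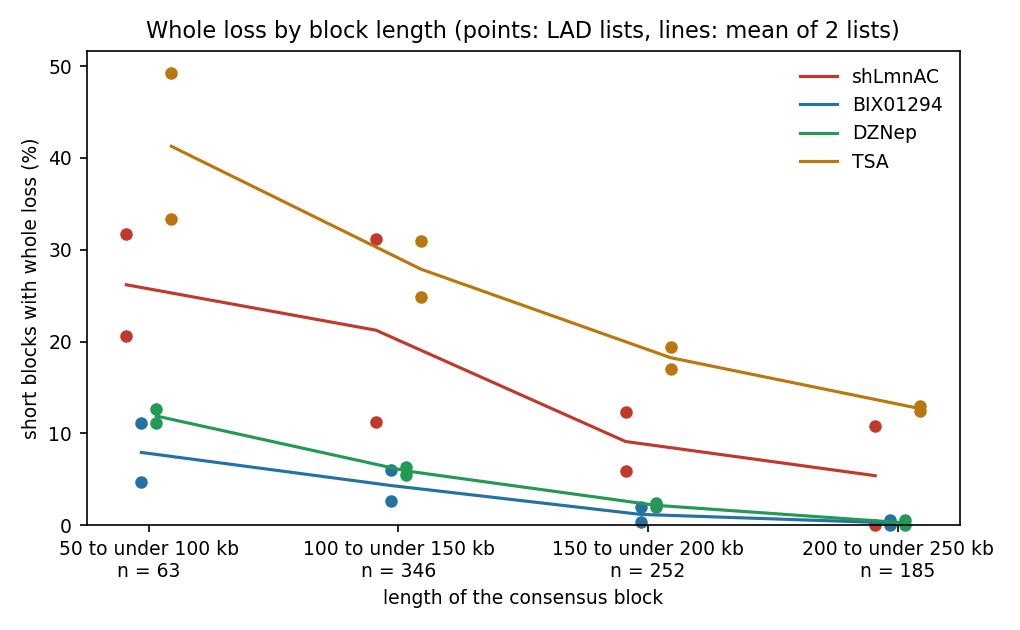
Whole loss (vertical axis, % of short blocks) by length of the consensus block (horizontal axis, with the number of blocks), with a point for each LAD list and a line through the mean of the 2 lists of each treatment. All 4 lines fall with length, and TSA goes from 41.3% to 12.7%.

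What was left at lost blocks was read from the lists as deposited. The deposited lists hold many intervals too short to pass the 100 kb limit, so a block with whole loss may still carry some. Of the lost blocks, 77.6% (52 of 67) in shLmnAC pup1.5 and 77.7% (139 of 179) in shLmnAC pupx17 still held bases of a deposited interval. With TSA this was so for 47.5% (87 of 183) in pup1.8 and 54.7% (110 of 201) in pupx17. The BIX01294 lists gave 64.7% and 92.3%, and the DZNep lists 74.3% and 90.9%, from far fewer blocks. The TSA lists also held the fewest deposited intervals of the treated lists (6054 and 5720, against 6783 to 8883), and within BIX01294 and DZNep the list with more intervals had the higher share. The part of interval number in these shares was not tested. Blocks without a single deposited base made up 11.3% and 10.8% of all short blocks in the TSA lists, 1.77% and 4.73% in the shLmnAC lists and 0.118% to 1.42% in the other 4. Over all 2078 consensus blocks the shares were 5.20% and 5.10%, 0.722% and 2.12%, and 0.0481% to 0.577% in that order. On this stricter count the mean for TSA was 11.1% and that for shLmnAC was 3.25%, so the shLmnAC mean fell below the mean of the other treatments (a difference of -0.926 points). TSA remained above the other 6 lists by 9.48 points (exact permutation test over 28 assignments, p = 0.0357, adjusted p = 0.143). Blocks without a deposited base in both lists numbered 49 for TSA (background 2.5% of all 2078 consensus blocks), 5 for shLmnAC (background 0.241%) and 0 for both other drugs (background 0%).

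Partial loss was mostly shallow trimming. It touched 36.4% ± 3.84 of short blocks with shLmnAC, 23.7% ± 1.92 with BIX01294, 30.6% ± 1.17 with DZNep and 38.2% ± 4.18 with TSA (SD, n = 2). Over all consensus blocks of at least 50 kb the means were higher, at 41.6%, 28.1%, 35.2% and 53.8% in that order. Among partly lost blocks, the median share still called was 91.9% to 97.3% over the 8 lists, a median of 4.19 to 12.9 kb uncalled, and both ends of that range of uncalled length came from pupx17 lists (BIX01294 and TSA). Trimming came from 1 edge in 83.1% to 91.7% of these blocks, and the trimmed edge faced the nearest long block in 48.1% to 53.8% of such cases. Blocks with less than 50% of their bases left were 2.63% to 6.13% of the partly lost ones. Partial loss in both lists was found for 180 short blocks with TSA (background 37.3%), 147 with shLmnAC (22.9%), 112 with DZNep (17.2%) and 68 with BIX01294 (10.4%). Each of these counts was a smaller share of the short blocks than the background (21.3%, 17.4%, 13.2% and 8.04%).

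The LADs that held the blocks in WT were set beside the loss. With shLmnAC, 12.6% (pup1.5) and 33.2% (pupx17) of the 190 islands were lost, against 3.45% and 8.87% of the 203 blocks inside a WT LAD of 1 Mb or more. The difference was 9.18 and 24.3 points, and islands were lost 3.66-fold and 3.74-fold as often. With TSA the islands were lost at 20.5% (pup1.8) and 23.7% (pupx17) and the blocks inside long LADs at 26.1% and 21.7%, differences of -5.58 and 2.01 points. With DZNep islands were lost at 7.89% and 5.26% and blocks inside long LADs at 2.46% and 2.96%, differences of 5.43 and 2.31 points, and the ratio in pup1.8 (3.21-fold) was close to those of shLmnAC. BIX01294 lists gave -4.26 and 1.12 points. Over the 3 classes of WT LAD the TSA mean stayed between 22.1% and 23.9%, while the shLmnAC mean went from 22.9% through 14.8% to 6.16%. WT lists that took no part in choosing blocks, described further on, also lost islands more than blocks in long LADs, by 15.2 points in pup1.5, 0.544 in pup1.8 and 10.4 in pupx17. The difference between treatments in this measure was not tested.

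**Figure D3:**
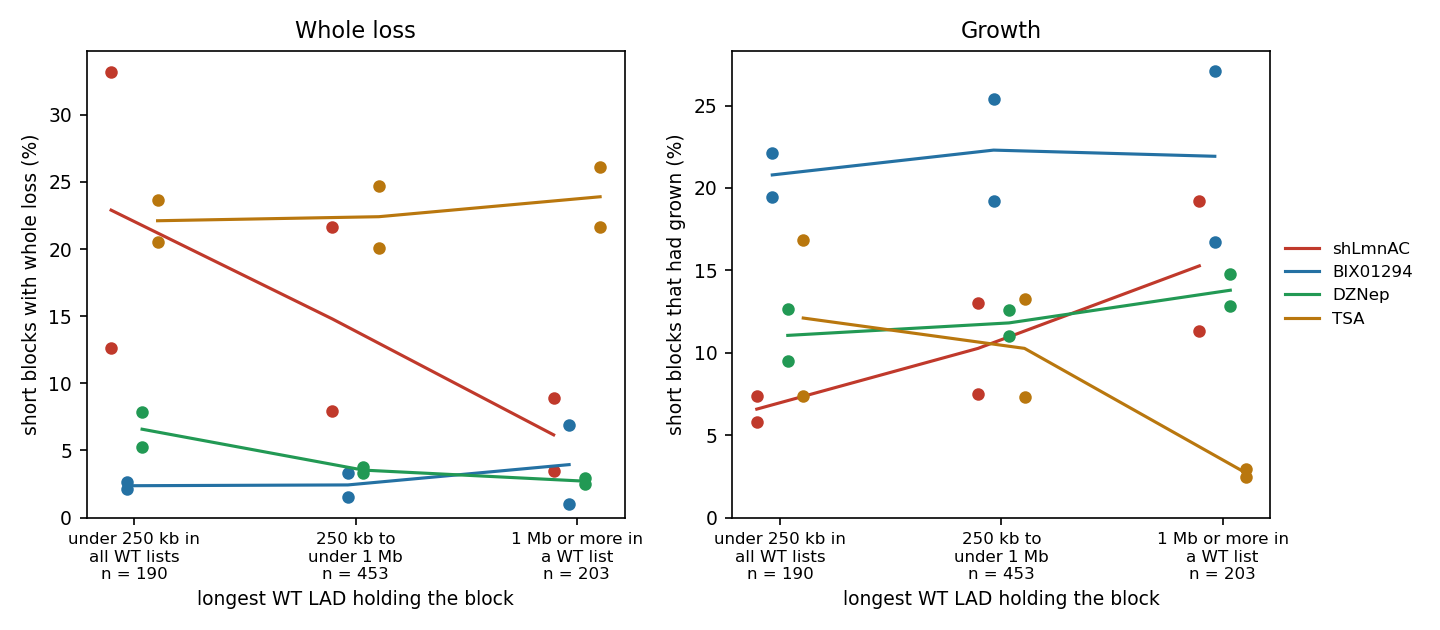
Whole loss (left) and growth (right), as % of short blocks, by the longest WT LAD that held the block, with a point for each LAD list and a line through the mean of the 2 lists of a treatment. The shLmnAC line falls from 22.9% to 6.16% whole loss from islands to blocks in long LADs, and the TSA line stays between 22.1% and 23.9%, while TSA growth goes from 12.1% to 2.71%.

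As a share of all 846 short blocks, growth was most frequent with BIX01294. It was seen in 158 blocks (18.7%) in pup1.8 and 212 blocks (25.1%) in pupx17, above every list of another treatment. Over all 2078 consensus blocks of at least 50 kb the BIX01294 lists also had the most growth, at 15.8% and 22.6%, against 12.7% and 9.05% with shLmnAC, 10.7% and 11.0% with DZNep and 8.57% and 5.05% with TSA. The shLmnAC lists had 112 (13.2%) and 68 (8.04%) grown blocks, the DZNep lists 107 (12.6%) and 98 (11.6%), and the TSA lists 97 (11.5%) and 53 (6.26%). The share of short blocks was above that of all consensus blocks in 7 lists and below it in shLmnAC pupx17. The BIX01294 mean of 21.9% ± 4.51 (SD, n = 2) exceeded that of the other 6 lists by 11.3 percentage points, the largest difference of the 28 assignments (two-sided exact permutation test, p = 0.0357, adjusted p = 0.143; within pups, 12 assignments, p = 0.0833, adjusted p = 0.333). The means were 12.1% ± 0.752 for DZNep, 10.6% ± 3.68 for shLmnAC and 8.87% ± 3.68 for TSA, and none differed from the others by more than other assignments gave (exact permutation p = 0.25 to 0.821). Only a fully called block can grow, so lists with much loss have fewer blocks that could. Among fully called short blocks, 26.3% and 32.9% had grown in the BIX01294 lists, 22.7% and 20.2% in the shLmnAC lists, 19.1% and 17.9% in the DZNep lists and 26.6% and 17.8% in the TSA lists. Over all consensus blocks the same count gave 24.0% and 30.0%, 21.3% and 20.1%, 16.8% and 17.6%, and 22.1% and 15.5% in that order. Among fully called short blocks TSA pup1.8 was level with BIX01294 pup1.8, and BIX01294 exceeded the other lists by 8.89 points (exact permutation, p = 0.0714, adjusted p = 0.286). With blocks built without WT pup1.8, growth was 31.2% for BIX01294, 14.3% for TSA and 20.2% for DZNep. The BIX01294 lists also had much LAD sequence, with 1481 and 1536 Mb the most of the treated lists, and its part in growth was not tested.

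Growth in both lists was found for 74 short blocks with BIX01294 (background 6.79%), 36 with shLmnAC (3.9%), 26 with DZNep (2.84%) and 17 with TSA (1.54%). As shares of the short blocks these were 8.75%, 4.26%, 3.07% and 2.01%. The size of growth differed. The median past the WT edge was 271 and 265 kb in the shLmnAC lists, against 106 to 131 kb in the 6 drug lists. In the shLmnAC lists 85.7% and 85.3% of grown blocks had been joined to another consensus block, compared with 50.9% to 69.3% in the drug lists. The LAD of a grown block reached the nearest long block in 26.8% and 23.5% of cases with shLmnAC and 7.22% to 19.4% with the drugs. Growth on both sides was rare, with 0 to 24 blocks per list, and growth on 1 side went toward the nearest long block in 46.1% to 59.6% of cases.

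Named examples show such joining. Reach was measured only in lists that called the whole block, so a list that called less of it has no value. The LAD at chr8:50499652-50622415 (123 kb) reached 3582 and 3590 kb past the WT edge in the shLmnAC lists and 3584 kb in DZNep pupx17. It reached 15.9 kb in TSA pupx17, the only other list that called the whole block. At chr4:36001621-36109813 (108 kb) the reach was 2979 and 3666 kb with shLmnAC and 2984 kb in TSA pupx17. There was none in the BIX01294 lists and DZNep pupx17, while TSA pup1.8 called 99.7% of the block and DZNep pup1.8 no base. For BIX01294, the LAD at chr6:96033768-96201662 (168 kb) reached 878 and 845 kb past the WT edge, and no other list that called the whole block passed 9.80 kb. Of this block shLmnAC pup1.5 called 99.5% and TSA pup1.8 13.6%. The block chr17:48251451-48469490 (218 kb) met the rule in 2 treatments, with 1054 and 1138 kb in the BIX01294 lists and 1469 and 1685 kb in the TSA lists. The reach was at most 9.13 kb in the DZNep lists and shLmnAC pup1.5, and shLmnAC pupx17 called 96.0% of the block. For TSA, the island chr7:138574136-138681957 (108 kb) reached 610 and 1057 kb, and at most 44.0 kb in the other lists that called it in full (shLmnAC pup1.5 called 97.5%). For DZNep, the LAD at chr5:8078846-8287323 (208 kb) reached 2315 and 2374 kb, but also 1682 kb in BIX01294 pup1.8, 1683 kb in TSA pup1.8 and 301 kb in shLmnAC pupx17. Among lists that called the whole block, a reach of this size could thus be seen with BIX01294 or TSA alone, whereas several of the largest were shared between treatments.

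Distance to the nearest long block was compared next. Of the 846 members, 82 lay under 100 kb from a long block, 129 at 100 to 500 kb and 635 at 500 kb or more. With shLmnAC, whole loss was 4.88% (pup1.5) and 11.0% (pupx17) of the nearest blocks and 8.35% and 23.1% of those 500 kb or more away. With TSA it was 22.0% (pup1.8) and 17.1% (pupx17) near and 21.9% and 24.4% far. BIX01294 lists lost 7.32% and 0% near and 3.31% and 1.42% far, and DZNep lists 1.22% and 2.44% near and 4.41% and 3.15% far. Loss was higher far from long blocks in 6 of 8 lists, and BIX01294 pup1.8 and TSA pup1.8 were the exceptions. The 82 near blocks make 1 block worth more than 1 percentage point, so small differences here rest on a few blocks.

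As a mean of 2 lists, far minus near whole loss was 7.82 ± 6.16 points for shLmnAC, 3.64 ± 5.23 for TSA, 1.95 ± 1.75 for DZNep and -1.30 ± 3.84 for BIX01294 (SD). The two-sided exact permutation test over 28 assignments gave adjusted p = 0.429 to 0.929, where 0.143 is the smallest it allows. The shLmnAC mean stood 6.39 points above the others, a direction that held in 20 of 20 alternatives (1.85 to 13.5 points, exact permutation p = 0.0357 to 0.571, adjusted p = 0.143 to 0.762). Spearman's rank correlation between distance and the share of a block called, over the 846 blocks of a list that share that list's calling, was between -0.110 and 0.109. Among blocks of 150 kb or more the far blocks were lost more often in all 8 lists, by 0.309 to 13.4 points, from 42 near and 324 far blocks. Among shorter blocks the difference ran from -9.86 to 18.8 points. Among the 643 blocks in no WT LAD of 1 Mb or more, 15 were near, and the far blocks were lost more often in 7 of 8 lists (-3.04 to 12.5 points), values that rest on those 15 blocks. Among the 203 blocks inside such a LAD the difference was positive in 3 lists, negative in 4 and 0 in 1.

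**Figure D4:**
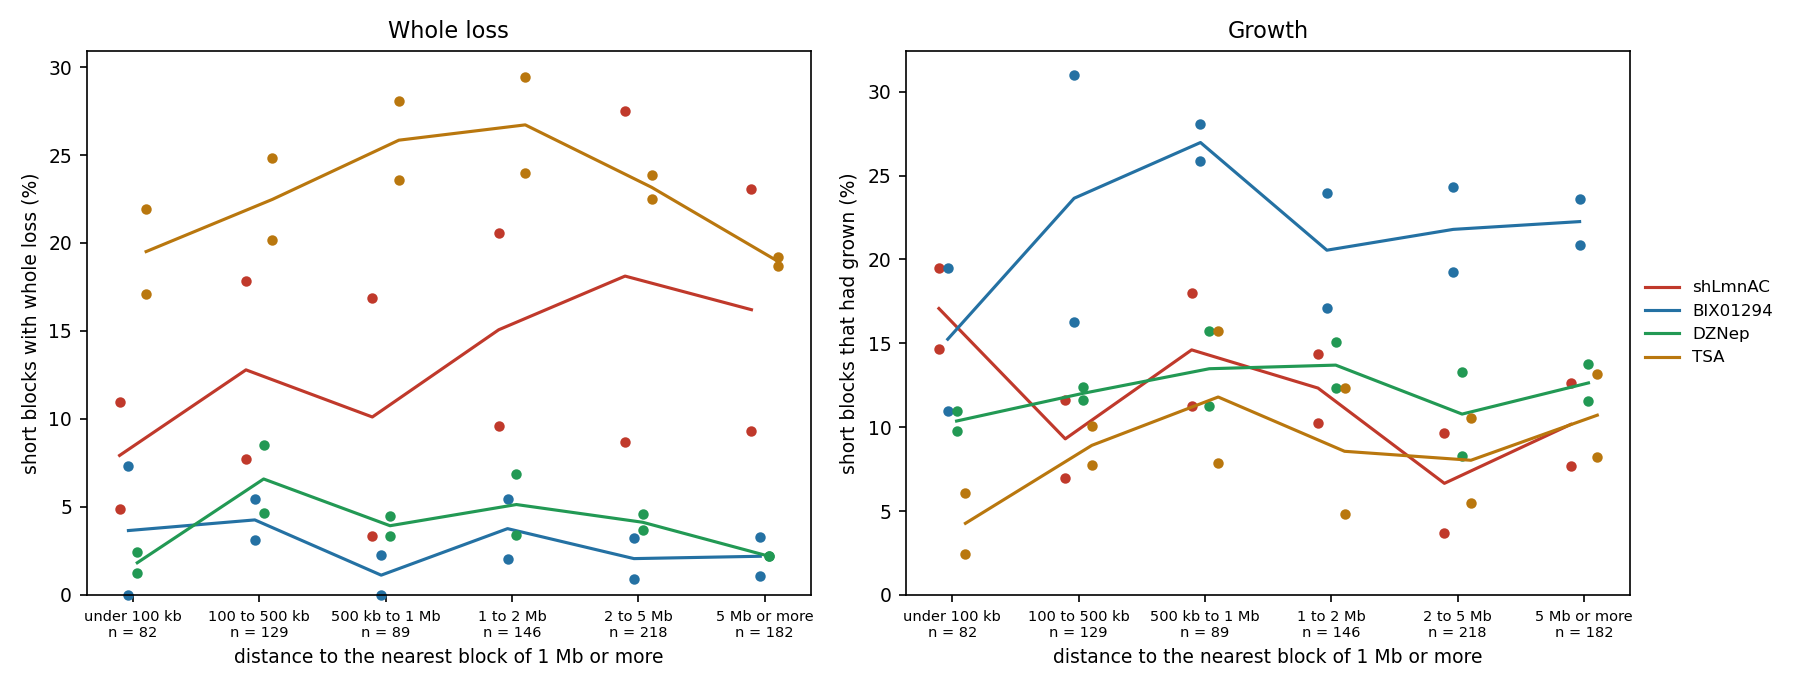
Whole loss (left) and growth (right), as % of short blocks, by distance to the nearest consensus block of 1 Mb or more, with the number of blocks in each class, a point for each LAD list and a line through the mean of the 2 lists of a treatment. Both TSA lists and shLmnAC pupx17 lie above the BIX01294 and DZNep lists at all distances, and shLmnAC loss is lowest (4.88% and 11.0%) under 100 kb apart from 3.37% in pup1.5 at 500 kb to 1 Mb.

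By finer distance classes, TSA whole loss was 17.1% to 29.5% in every list and class and showed no steady trend. In shLmnAC pupx17 it rose from 11.0% under 100 kb to 27.5% at 2 to 5 Mb and was 23.1% at 5 Mb or more. The member farthest from a long block, chr2:3255987-3393549 (138 kb), stood 32744 kb away and was lost in shLmnAC pupx17 and in both TSA lists, with 96.9% to 100% called in the other 5. Its neighbour chr2:3433720-3593899 (160 kb) was called in all 8 lists, at 75.4% and 85.4% with TSA and 99.7% to 100% otherwise. Growth with distance moved in opposite directions: it was less frequent far than near with shLmnAC (-6.99 ± 0.337 points) and more frequent far than near with BIX01294 (7.12 ± 2.92), TSA (5.18 ± 1.64) and DZNep (2.0 ± 0.0828). Near blocks often have a WT edge that already includes the long block, so growth past it means something else there than far away.

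Comparison with WT needs care, because a block present in all WT lists can only be lost elsewhere. Blocks were therefore rebuilt from 2 WT lists at a time, and the WT list left out was scored beside the treated lists. The left-out WT list lost 22.2% of 893 blocks in pup1.5, 3.12% of 769 blocks in pup1.8 and 15.1% of 773 blocks in pupx17, a mean of 13.5% ± 9.63 (SD, n = 3). WT pup1.5, which lost most, also had the least LAD sequence of the WT lists (1377 Mb), and WT pup1.8, which lost least, had the most (1507 Mb). On the same 3 sets of blocks the treated lists lost 26.9% ± 3.30 with TSA, 20.2% ± 10.2 with shLmnAC, 7.40% ± 0.706 with DZNep and 5.21% ± 2.58 with BIX01294 (SD, n = 2). TSA was 13.4 points above the left-out WT lists and shLmnAC 6.73 points above them, whereas DZNep and BIX01294 stood at -6.08 and -8.27 points relative to them.

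**Figure D5:**
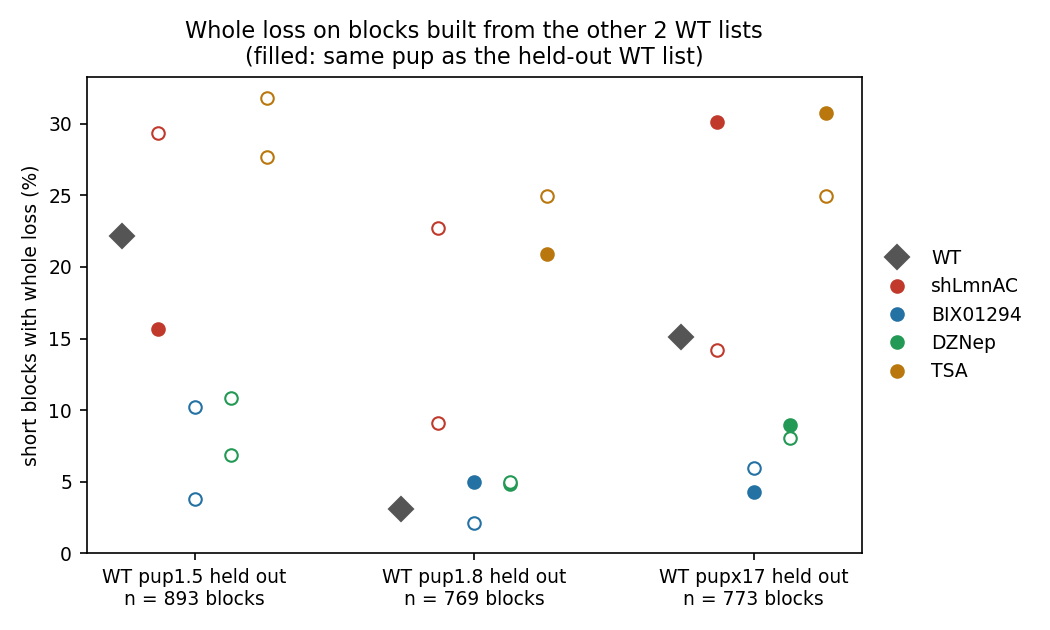
Whole loss (vertical axis, % of short blocks) in the WT list left out (diamonds) and in the 8 treated lists (circles) on blocks built from the other 2 WT lists, for each WT list in turn. Both TSA circles lie above the WT diamond in all 3 sets, and the diamonds range from 3.12% to 22.2%.

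Both TSA lists lay above the left-out WT list in all 3 sets of blocks. With the blocks rebuilt for every choice of 3 reference lists out of the 3 WT and 2 TSA lists, the true choice gave the highest whole loss of the 10 assignments (22.7% against 3.36% to 14.7%, one-sided exact permutation test, p = 0.1, adjusted p = 0.4). This is the smallest p that 5 lists allow. The same test gave p = 0.3 for shLmnAC (14.5% against 2.51% to 17.7% in the other assignments), p = 0.8 for DZNep and p = 0.9 for BIX01294 (exact permutation, adjusted p = 0.6, 0.9 and 0.9). The whole loss of short blocks with shLmnAC was therefore within the range of the other assignments, and a p of this size does not show that shLmnAC and WT were alike. Left-out WT lists also lost more far than near blocks, by 8.41 points in pup1.5, 0.0579 in pup1.8 and 12.1 in pupx17. On the same blocks the shLmnAC list of pup1.5 gave 6.13, 2.85 and 8.40 points, and that of pupx17 gave 13.3, 12.9 and 15.4 points. The pupx17 list was thus above the left-out WT list in all 3 sets, and the pup1.5 list in 1 of 3. Growth in left-out WT lists was 20.7% ± 9.02, against 25.6% ± 4.50 for BIX01294 on the same blocks (SD), a difference smaller than the spread between the WT lists.

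Compared within a pup, whole loss with TSA exceeded that of WT by 17.8 points in pup1.8 and 15.7 points in pupx17. The other treatments changed sign between pups. The shLmnAC difference was -6.49 points in pup1.5 and 15.0 in pupx17, that of BIX01294 was 1.82 in pup1.8 and -10.9 in pupx17, and that of DZNep was 1.69 and -6.21. Growth, as a share of all short blocks, was below WT in both pups with TSA (-11.8 and -9.18 points) and DZNep (-7.80 and -3.49 points). It changed sign with BIX01294, at 27.8% against 30.4% in WT in pup1.8 (-2.60 points) and 25.9% against 18.9% in pupx17 (6.99 points), and with shLmnAC (0.896 points in pup1.5 and -4.92 in pupx17). Among fully called blocks, growth in WT was 46.5% in pup1.8 and 41.1% in pupx17. The same count gave 42.0% and 44.3% with BIX01294, 37.5% and 31.2% with DZNep and 45.8% and 37.5% with TSA. In pup1.5 it was 32.4% with shLmnAC and 34.9% in WT, and in pupx17 it was 44.3% with shLmnAC. These are comparisons of 1 list with 1 list and were not tested.

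The number of treated lists that lost each block was counted next. Of the 846 members, 452 (53.4%) were lost whole in no treated list, 186 in 1 list, 123 in 2 lists and 49 in 3 lists. In 4, 5, 6 and 7 lists the counts were 23, 5, 7 and 1, and none was lost in all 8. These counts depend on the share lost per list, and whether losses recurred more often than those shares give was not tested. Over all 2078 consensus blocks, 78.6% were lost whole in no list. In all 8 lists 47 members (5.56%) were fully called, against 5.82% of all consensus blocks, so the others lost bases in at least 1 list. The longest of these 47 were chr7:6399793-6647517 (248 kb), chr19:54876691-55124222 (248 kb) and chr10:63081453-63328440 (247 kb). In 468 members (55.3%) growth was seen in at least 1 list, against 52.5% of all consensus blocks, with 2 members grown in 7 lists and none in all 8. For the counts by number of lists, the share over all consensus blocks was not computed.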

How the data were processed

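DamID compares Dam fused to a lamina protein with unfused Dam. The authors deposited 1 LAD list per pair of an experiment and a control sample, replicates not pooled. The deposited lists hold interval coordinates in base pairs, and no other value, in mm9 per the labels. The fused protein, the aligner and the LAD caller with its settings are not given in the sources used here. Scripts joined intervals under 25 kb apart and kept those above 100 kb, limits chosen for this work, on chromosomes 1 to 19. Starts are given counting from 1. Overlaps, states and distances were computed in Python 3.11.15 with numpy 2.4.6 and scipy 1.17.1, and figures with matplotlib 3.10.9. Groups came from sample titles, and lists of the same pup were taken as paired because the titles name the pup. Tests were exact permutation tests over lists with Benjamini-Hochberg adjustment over 4 treatments. Alternatives changed the joining, the length filter, the definitions of loss, growth, block and distance, the chromosomes, the pairing and the lists used. No test was run over blocks, since blocks of a list are not replicates. Named blocks were, per treatment, the 5 longest lost in both lists and the 3 with most growth in both, plus the extremes of length and distance and the 3 longest fully called in all 8 lists, and not all of them are printed. The members and measures were chosen with earlier results of these data known. The interval code was tested on simulated data: 200 random sets gave 0 mismatches to a count base by base, and 192 of 192 planted losses were found. Genes and sequences at the blocks were not analysed here, since no mm9 genome or gene positions were used, and signal tracks were not used here.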

Additional observations from a re-analysis of the deposited data

Results flagged for a closer look

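In 3 treatments whole loss of short blocks ran opposite ways against the WT list of the same pup. The shLmnAC list lost 6.49 points less than WT in pup1.5 (a difference of -6.49) and 15.0 points more in pupx17. The BIX01294 lists differed from WT by 1.82 points in pup1.8 and -10.9 points in pupx17, and the DZNep lists by 1.69 and -6.21 points. Each side is 1 list against 1 list, so the difference between pups was not tested. In pup1.8 and pupx17 the WT lists lost 3.12% and 15.1%, the BIX01294 lists 4.94% and 4.27%, and the DZNep lists 4.81% and 8.93%. The 2 pups were scored on different sets of blocks (769 and 773). The part of each list in the change of sign was not tested.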

How the results depend on the processing

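The direction of the TSA whole loss against the other treatments held in 19 of 19 alternatives (9.48 to 18.4 points, adjusted exact permutation p = 0.143 to 0.286), and that of the BIX01294 growth in 19 of 19 (4.17 to 15.2 points, adjusted p = 0.143 to 0.571). With 8 lists neither could pass the threshold. The higher whole loss of shLmnAC held in 15 of 19 and rested on the length filter and on 1 list. The test against WT with blocks rebuilt kept its direction in 9 of 9 alternatives per treatment (TSA 8.06 to 17.5 points, shLmnAC 0.203 to 11.1). Its alternatives, those for the counts in both lists, growth among fully called blocks, assignments within pups and the count of blocks without a deposited base were chosen after seeing the data. The cause of the changes below was not tested.

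With the lists as deposited, whole loss was 3.32% for shLmnAC, 0.614% for BIX01294, 0.956% for DZNep and 11.8% for TSA. shLmnAC minus the others became -1.15 points and shLmnAC minus left-out WT -0.483 points. Growth became 13.2% for BIX01294 and 8.49% for DZNep. Joined without a length filter, whole loss was 5.26% for shLmnAC, 0.997% for BIX01294, 1.36% for DZNep and 14.5% for TSA, shLmnAC minus the others was -0.359 points, shLmnAC minus left-out WT -0.621 points, and far minus near for TSA against the others -0.642 points. Joining under 50 kb gave whole loss of 3.85% (DZNep) and 24.8% (TSA), growth of 27.5% (BIX01294) and 15.4% (DZNep), far minus near of -1.62 (DZNep) and -9.38 (TSA), and -11.5 for TSA against the others. Blocks called in 2 of 3 WT lists gave whole loss of 32.5% (shLmnAC), 10.4% (BIX01294), 14.9% (DZNep) and 36.1% (TSA), growth of 6.88% (shLmnAC), 14.7% (BIX01294) and 7.14% (DZNep), far minus near of -0.236 (DZNep) and -2.28 (TSA), and -4.70 for TSA against the others. Blocks from 100 kb gave DZNep 3.38% whole loss and 11.3% growth. Among fully called blocks growth was 21.5% (shLmnAC), 29.6% (BIX01294), 18.5% (DZNep) and 22.2% (TSA). A growth margin of 50 kb gave 16.2% (BIX01294) and 8.39% (DZNep). Long blocks from 500 kb gave TSA against the others -3.78 points far minus near. Blocks without a deposited base were 3.25% for shLmnAC (-0.926 against the others), 0.768% for BIX01294, 0.709% for DZNep and 11.1% for TSA. Counts of blocks lost in both lists ranged over all alternatives from 49 to 184 for TSA and from 5 to 144 for shLmnAC.

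Leaving out 1 list at a time, whole loss ranged from 7.92% to 22.5% for shLmnAC, 1.54% to 7.0% for BIX01294, 3.90% to 8.85% for DZNep and 21.6% to 29.7% for TSA. Against the others it ranged from -1.91 (without shLmnAC pupx17) to 11.3 points for shLmnAC, -14.4 to -8.97 for BIX01294, -11.7 to -7.23 for DZNep and 14.5 to 18.4 for TSA. Growth ranged from 8.04% to 14.8% for shLmnAC, 18.7% to 31.2% for BIX01294, 11.6% to 20.2% for DZNep and 6.26% to 14.3% for TSA, and against the others from -8.39 to -1.04, 8.14 to 15.2, -3.18 to 0.579 and -8.61 to -3.41 points in that order. Far minus near ranged from 3.47 to 12.2, -4.01 to 1.42, -0.787 to 4.69 and -2.93 to 7.34, and against the others from 2.04 to 10.7, -8.48 to -3.05, -3.58 to 0.320 and -4.43 to 4.51. Relative to left-out WT lists whole loss ranged from -0.473 to 13.9, -12.6 to -4.82, -9.99 to -2.45 and 10.2 to 16.3 points.

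In the replicate block, each treated list was paired with the WT list of its pup, and whole loss relative to WT was 4.26 points for shLmnAC, -4.52 for BIX01294, -2.26 for DZNep and 16.7 for TSA. It changed no direction of these means. With the assignments kept within pups no adjusted p was under 0.333. The smallest p this exact permutation test allows is 0.0833 for a drug and 0.25 for shLmnAC, so no call could change. No depth is given, so how much of the spread between lists comes from sequencing was not tested.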
